A study of Mus musculus with 12 samples.

Results

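The set described here was 10 genes that respond to, and restrain or carry out, signalling through the mitogen-activated protein kinase (MAPK) ERK: Dusp1, Dusp4, Dusp5, Dusp6, Spry1, Spry2, Spry4, Spred1, Etv4 and Etv5. They were chosen by name, and 10 of 10 were found among the 37931 gene names shared by both count tables of the series. The series asked what loss of Foxc1, a forkhead transcription factor, does to RNA in stem cells of the hair follicle, taken from mouse back skin. Cells were freed with collagenase and trypsin and sorted as H2BGFP-positive, Sca-1-negative, CD34-positive and CD49f-positive, and poly(A) RNA was sequenced. Levels are in CPM, the reads of a gene per 1000000 reads that a library had over all genes.

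The knockout (KO) mice were K14-H2BGFP, K14Cre, Foxc1 fl/fl and the wild-type (WT) mice were K14-H2BGFP, Foxc1 fl/fl, so both genotypes carried the fluorescent histone and the floxed alleles. The keratin 14 promoter drives both transgenes and is active in basal keratinocytes of the whole skin, not in these stem cells alone. Anagen, the growth phase, had 3 WT libraries (replicates 1, 2 and 3, titled P29, P30 and P31) and 2 KO libraries (replicates 1 and 2, titled P29 and P31). Early telogen, the resting phase after it, had 3 WT libraries (replicates 1, 3 and 4, P47) and 4 KO libraries (replicates 1, 2 and 3, P47, and replicate 5, titled P43). The age label gave 43 days for anagen WT replicate 3 and 47 days for early telogen KO replicate 5, against their titles. The labels do not say that libraries of a group came from separate animals, so p-values measure only the spread between these samples.

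Library totals over genes lay between 29025553 and 54482469 counts in anagen, and between 2662083 and 11821916 in early telogen. Foxc1 was at 34.6 to 116 CPM in anagen WT, 0.206 and 0.276 CPM in anagen KO, 43.8 to 61.2 CPM in early telogen WT and 0.910 to 3.11 CPM in early telogen KO, as the labels say. The 10 stem cell markers were above 0 in every library and summed to 21842 to 36126 CPM. Single markers were not even between genotypes. In anagen KO, Krt15 (log2 fold change -2.12), Nfatc1 (-1.37), Cd34 (-1.22) and Lhx2 (-0.66) were lower at an edgeR unadjusted p under 0.05. None of the 10 had an adjusted p under 0.05 there. In early telogen KO, Cd34 alone did (-1.20, edgeR adjusted p = 0.0212). Of the 10, 4 had a positive log2 fold change in anagen and 1 in early telogen. Early telogen KO replicate 2 stood apart in other lineages, with 5030 CPM over 8 fibroblast genes and 6120 CPM over 8 genes of epidermal differentiation, against 262 to 1542 and 642 to 3914 CPM in the other libraries. In bulk RNA, fewer cells of a type and less RNA per cell cannot be told apart. Stage was also the table, the depth and the age of the mice, and these cannot be told apart from the hair cycle.

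ERK is switched on by receptor tyrosine kinases, such as those for fibroblast growth factors (FGFs), through Ras, Raf and MEK. Active ERK raises transcription of its own brakes, so RNA of these feedback genes is widely used as a readout of pathway output. Dual-specificity phosphatases (Dusp) remove phosphate from MAP kinases, Sprouty (Spry) and Spred proteins act upstream at receptor and Ras level, and Etv4 and Etv5 are ETS transcription factors that FGF signalling induces. FGFs take part in the hair cycle, with some ligands promoting entry into growth and Fgf18 known for holding follicles at rest.

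The bases just before the start sites of these genes were searched for letters known from regulators of this pathway. RefSeq promoters (build GRCm38.p6) of 7 of the 10 genes were searched, with 8 promoters, since Etv5 had a pair. Those of Dusp4, Spry4 and Etv4 were not part of the search. Dusp6, Etv5, Dusp1 and Dusp5 are shown because their windows held words that were searched, printed 5′ to 3′ along the gene's strand, with the matches in capitals. Positions count back from the RefSeq start, and bases that a GENCODE exon covers next to it were left out: 47 for Dusp1, 36 for Dusp5 and 149 for the outer promoter of Etv5.
Dusp6, chr10:99262981-99263230, plus strand: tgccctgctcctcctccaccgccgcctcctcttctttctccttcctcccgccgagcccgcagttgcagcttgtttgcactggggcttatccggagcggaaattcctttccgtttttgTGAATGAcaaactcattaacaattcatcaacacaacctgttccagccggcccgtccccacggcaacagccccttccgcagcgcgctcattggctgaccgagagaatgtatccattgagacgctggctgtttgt
Etv5, inner promoter, chr16:22438369-22438618, minus strand: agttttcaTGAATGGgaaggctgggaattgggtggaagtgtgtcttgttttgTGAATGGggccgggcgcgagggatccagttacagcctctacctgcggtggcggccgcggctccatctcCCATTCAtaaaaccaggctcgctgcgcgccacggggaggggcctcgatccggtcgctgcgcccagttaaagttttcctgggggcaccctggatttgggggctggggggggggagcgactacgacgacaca
Etv5, outer promoter, chr16:22439720-22439820, minus strand: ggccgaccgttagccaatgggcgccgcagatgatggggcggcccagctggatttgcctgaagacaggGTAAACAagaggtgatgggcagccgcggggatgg
Dusp1, chr17:26508520-26508722, minus strand: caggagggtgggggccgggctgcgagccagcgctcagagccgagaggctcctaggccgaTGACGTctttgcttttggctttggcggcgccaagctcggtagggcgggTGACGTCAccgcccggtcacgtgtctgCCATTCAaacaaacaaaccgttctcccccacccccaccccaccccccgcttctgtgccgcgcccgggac
Dusp5, chr19:53528895-53529108, plus strand: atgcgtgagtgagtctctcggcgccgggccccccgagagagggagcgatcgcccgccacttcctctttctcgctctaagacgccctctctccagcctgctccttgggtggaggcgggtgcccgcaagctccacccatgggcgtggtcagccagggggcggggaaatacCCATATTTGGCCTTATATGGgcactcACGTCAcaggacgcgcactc

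TGAATGA and TGAATGG are letters known from sites of Capicua, a repressor that ERK relieves. No other form of that site was searched, so a window without these words may hold another form. Dusp6 held TGAATGA at 127 to 133 bases before its start. The inner promoter of Etv5 held TGAATGG 3 times, at 124 to 130, 192 to 198 and 236 to 242 bases before the start, the nearest in reverse as CCATTCA. Dusp1 held TGAATGG in reverse at 110 to 116 bases, and Dusp5 held TGAATGA at 32 to 38 bases, outside the stretch printed. Across the 250 bases before each of 32851 RefSeq promoters, read on both strands, 5.93% held either word, and 1 promoter (0.003%), that of Etv5, held TGAATGG at least 3 times. The cut of 3 matches the count in Etv5 itself and was used for this word alone, so that share is a description only.

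Other words searched were found in Dusp1, Dusp5 and Etv5. Dusp1 held TGACGTCA, the cyclic AMP response element, at 136 to 143 bases, a word found in 1.55% of promoters. It also held the shorter TGACGT at 186 to 191 bases, and Dusp5 held it in reverse as ACGTCA at 51 to 56 bases. TGACGT lies within TGACGTCA on both strands and was found in 6.47% of promoters. Dusp5 held a pair of adjacent CArG boxes, the word of serum response factor, at 63 to 72 and 73 to 82 bases, against 1.47% of promoters with at least 1. GTAAACA, letters known from forkhead factors, was in the outer promoter of Etv5 at 177 to 183 bases and in 3.17% of promoters. TGANTCA, known from AP-1, and CCGGAAG, known from ETS factors, were in 0 of the 8 promoters and in 6.75% and 6.91% of all. These matches describe letters only, and they did not follow the stage differences given below. Words were found for Dusp6 and Etv5, which passed in at least 1 genotype, and for Dusp1 and Dusp5, which passed in neither. None was found for Spry1, which passed in neither, or for Spry2 and Spred1, which passed in KO.

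Levels between genes were set side by side as CPM per kilobase of exon. In anagen WT, Dusp1 stood at 455 ± 118 CPM per kilobase (SD, n = 3) and Dusp6 at 269 ± 42.7. Dusp5 followed at 61.9 ± 15.5, Spry2 at 33.6 ± 12.4 and Spred1 at 13.7 ± 2.83, and the libraries of each of these genes lay clear of those of the next. Spry1 at 8.32 ± 1.56, Etv4 at 7.43 ± 4.78, Etv5 at 5.34 ± 2.16 and Dusp4 at 4.92 ± 1.70 overlapped, each with its neighbour, and Spry4 was lowest at 1.41 ± 0.63. The nuclear phosphatase Dusp1 and the cytoplasmic phosphatase Dusp6 also held the first and the second rank in the 3 other groups, with overlapping libraries in anagen KO. Etv4 ranked 9 in both early telogen groups, at 1.13 ± 0.30 CPM per kilobase in WT (n = 3) and 2.86 ± 1.32 in KO (n = 4). Dusp4 ranked 5 in anagen KO at 18.9 ± 8.97 (n = 2), where its libraries overlapped those of Etv4.

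**Figure D1:**
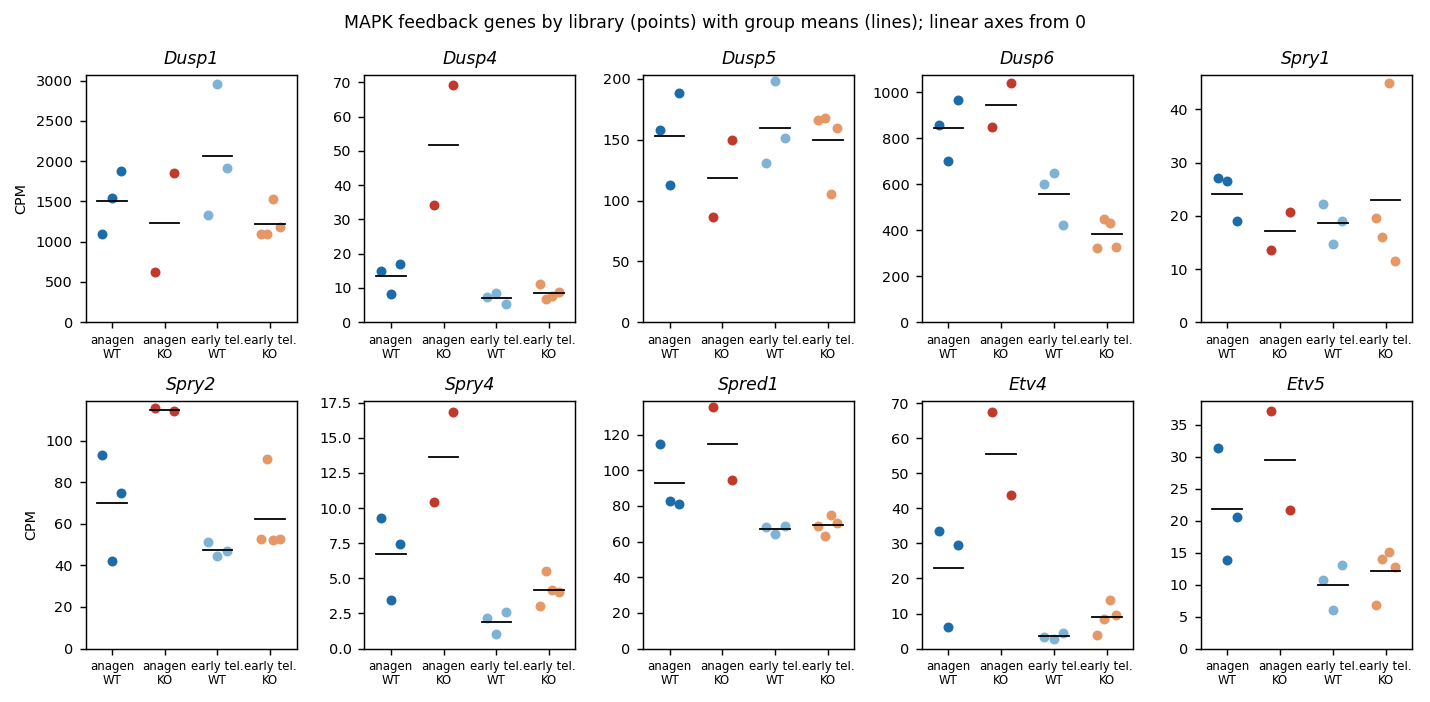
CPM of each of the 10 genes (linear axes from 0) in every library, by group, with lines at group means. Etv4, Spry4, Etv5, Dusp6 and Spred1 were lower in every early telogen library than in the lowest anagen library of the same genotype. Dusp4 and Spry2 overlapped between stages in WT alone, and Dusp1, Dusp5 and Spry1 in both genotypes.

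The first comparison asked how the 10 genes differed between early telogen and anagen within each genotype. In WT cells, 3 of 10 were lower in early telogen and passed: the FGF-induced factors Etv4 and Etv5 and the Sprouty gene Spry4. In KO cells, 7 of 10 were lower and passed, namely Dusp4, Dusp6, Spry2, Spry4, Spred1, Etv4 and Etv5. Dusp1, Dusp5 and Spry1 passed in neither genotype, and none of the 10 was higher and passed. The threshold was an edgeR adjusted p of 0.05 over all genes tested. In WT, 15.9% of 12718 genes were lower and passed (29.5% in either direction), and in KO 12% of 12771 (22.2% in either direction). The median log2 fold change of the 10 genes was -0.48 in WT against -0.10 over all genes, and -1.07 in KO against -0.03.

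Etv4, an ETS factor of the PEA3 group, had the largest difference between stages among the 10 genes in both genotypes, beside Dusp4 in KO. It was at 33.6, 6.11 and 29.5 CPM in anagen WT and at 3.21, 2.78 and 4.57 CPM in early telogen WT. The KO libraries held 67.5 and 43.8 CPM in anagen and 3.76, 8.46, 13.8 and 9.50 CPM in early telogen (replicates 5, 1, 2 and 3, the order kept below). Within each genotype no early telogen library reached the lowest anagen library, and anagen WT replicate 2 lay far below the other anagen libraries. On the log2 scale the fold change was -2.64 ± 0.63 in WT (SE, edgeR adjusted p = 0.0209) and -2.62 ± 0.34 in KO (edgeR adjusted p = 0.000565). In WT the call was lost without any 1 of the early telogen libraries (edgeR adjusted p 0.0591 to 0.0809) and when low-count genes were kept (0.0836).

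Etv5, the closest relative of Etv4 in the set, was at 31.4, 13.8 and 20.5 CPM in anagen WT and at 10.7, 6.03 and 13.0 CPM in early telogen WT. Its KO values were 37.2 and 21.7 CPM in anagen and 6.76, 14.0, 15.1 and 12.7 CPM in early telogen. The stages did not overlap in either genotype, though the gap in WT was narrow. Etv5 fell by 1.07 ± 0.35 on the log2 scale in WT (edgeR adjusted p = 0.0452) and fell by 1.26 ± 0.32 in KO (edgeR adjusted p = 0.0194). The WT call was lost without anagen WT replicate 1 (edgeR adjusted p = 0.155) or 3 (0.0787) and without early telogen WT replicate 1 (0.102), 3 (0.121) or 4 (0.0524). It was also lost with sex as a covariate (0.0701) and with DESeq2 size factors (0.0509), and the KO call without anagen KO replicate 1 (0.223).

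Spry4, a Sprouty inhibitor encoded on chromosome 18, was at 9.27, 3.42 and 7.44 CPM in anagen WT and at 2.14, 1.02 and 2.61 CPM in early telogen WT. In KO it was at 10.5 and 16.8 CPM in anagen and at 3.01, 5.50, 4.18 and 4.04 CPM in early telogen. Stages did not overlap in either genotype, but the early telogen values rested on few reads, 11 to 24 in WT and 8 to 65 in KO. Its log2 fold change was -1.75 ± 0.49 in WT (edgeR adjusted p = 0.0255) and -1.68 ± 0.38 in KO (edgeR adjusted p = 0.0106). In WT the call was lost without anagen replicate 1 (edgeR adjusted p = 0.0962) or 3 (0.0638) and without early telogen replicate 1 (0.0585) or 3 (0.0722), and in KO without anagen replicate 2 (0.153).

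Spry2, the Sprouty gene with most RNA per length in WT, was at 93.2, 42.2 and 74.8 CPM in anagen WT and at 51.2, 44.4 and 46.6 CPM in early telogen WT. The KO libraries held 115 and 114 CPM in anagen and 52.6, 91.0, 52.1 and 52.9 CPM in early telogen. In WT the stages overlapped through the low anagen replicate 2, and in KO they did not. Its log2 fold change was -0.47 ± 0.25 in WT (edgeR adjusted p = 0.192) and -0.89 ± 0.26 in KO (edgeR adjusted p = 0.0355). Without anagen WT replicate 2 the WT difference passed (edgeR adjusted p = 0.0197). The KO call was lost without anagen KO replicate 1 (0.104) or 2 (0.0908) and without early telogen KO replicate 5 (0.0828) or 3 (0.0716).

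Spred1, which brings the Ras inactivator neurofibromin to the membrane, was at 115, 82.5 and 80.8 CPM in anagen WT and at 68.2, 64.1 and 69.0 CPM in early telogen WT. Its KO values were 135 and 94.4 CPM in anagen and 68.7, 62.8, 74.9 and 70.4 CPM in early telogen. Early telogen libraries were tightly grouped and lay below every anagen library. The log2 fold change was -0.38 ± 0.17 in WT (edgeR adjusted p = 0.129) and -0.73 ± 0.23 in KO (edgeR adjusted p = 0.0408). The KO call was lost without anagen KO replicate 1 (0.353) and without early telogen KO replicate 5 (0.0624), 1 (0.112) or 2 (0.0503).

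Spry1, the third Sprouty gene, had no stage difference that passed. It was at 27.1, 26.5 and 18.9 CPM in anagen WT and at 22.2, 14.7 and 19.1 CPM in early telogen WT. In KO it was at 13.5 and 20.6 CPM in anagen and at 19.5, 15.99, 44.9 and 11.5 CPM in early telogen. The stages overlapped in both genotypes, and the high KO value was that of early telogen replicate 2, the library with most fibroblast and epidermal differentiation RNA. The part of that RNA in the Spry1 value was not tested. On the log2 scale the fold change was -0.30 ± 0.22 in WT and 0.38 ± 0.43 in KO (edgeR adjusted p = 0.346 and 0.556).

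Dusp4, an inducible nuclear phosphatase, was at 15.1, 8.23 and 17.1 CPM in anagen WT and at 7.41, 8.44 and 5.22 CPM in early telogen WT. The KO libraries held 34.3 and 69.1 CPM in anagen and 11.3, 6.68, 7.64 and 8.89 CPM in early telogen. In WT the stages overlapped through anagen replicate 2, and in KO they were far apart. Its log2 fold change was -0.83 ± 0.33 in WT (edgeR adjusted p = 0.0829) and -2.61 ± 0.34 in KO (edgeR adjusted p = 0.000511). The WT difference passed without anagen WT replicate 2 (edgeR adjusted p = 0.0317) and when low-count genes were kept (0.0306), while the KO call held in 14 of 14 alternatives.

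Dusp6, the cytoplasmic phosphatase specific for ERK, was at 860, 702 and 968 CPM in anagen WT and at 600, 650 and 425 CPM in early telogen WT. Its KO values were 848 and 1042 CPM in anagen and 325, 451, 430 and 326 CPM in early telogen. The stages did not overlap in either genotype, and the gap was wider in KO. Dusp6 had a log2 fold change of -0.50 ± 0.22 in WT (edgeR adjusted p = 0.112) and fell by 1.32 ± 0.23 in KO (edgeR adjusted p = 0.00317). The WT difference passed with library totals in place of TMM scaling (edgeR adjusted p = 0.0461) and when low-count genes were kept (0.0439).

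Dusp5, a nuclear phosphatase specific for ERK, lay between 113 and 189 CPM in anagen WT, 131 and 198 CPM in early telogen WT, 86.5 and 150 CPM in anagen KO and 105 and 168 CPM in early telogen KO. Its groups overlapped throughout, with log2 fold changes of 0.17 ± 0.24 in WT and 0.36 ± 0.32 in KO (edgeR adjusted p = 0.629 and 0.449). Dusp1, an immediate-early gene whose product also acts on p38 and JNK, had log2 fold changes of 0.57 ± 0.34 in WT and -0.02 ± 0.37 in KO (edgeR adjusted p = 0.237 and 0.972).

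**Figure D2:**
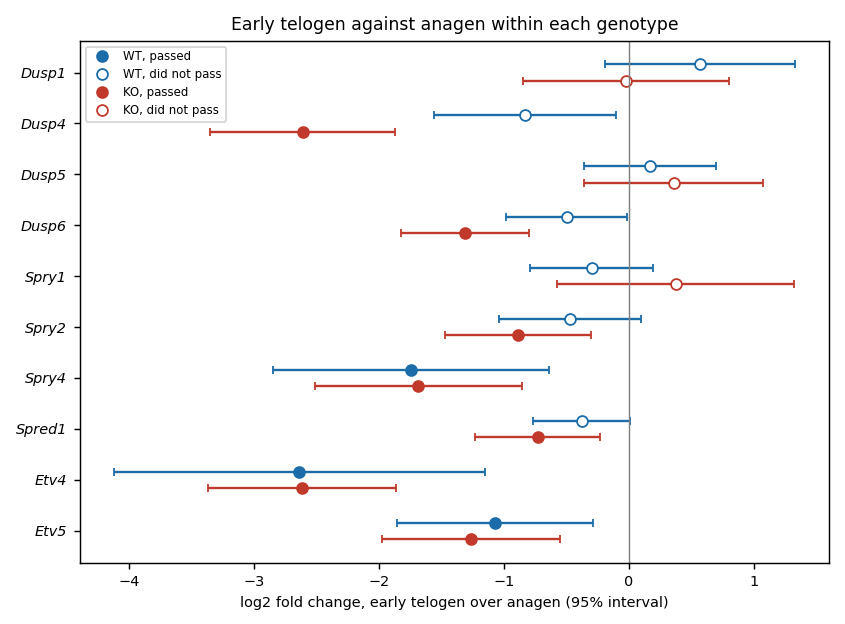
Log2 fold change of early telogen over anagen with 95% intervals from the edgeR fit, for WT (3 against 3 libraries) and KO (4 against 2), filled where the gene passed. Etv4, Spry4 and Etv5 are filled in both genotypes, and Dusp4, Dusp6, Spry2 and Spred1 in KO alone.

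Libraries of the stages did not overlap, with early telogen lower, for 5 of 10 genes in WT (31.9% of all genes tested) and for 7 of 10 in KO (25%). Leaving out 1 library moved the number that passed to between 0 and 5 in WT and between 4 and 6 in KO. The WT count was 0 without early telogen replicate 1 or 3, 1 without early telogen replicate 4 or anagen replicate 1 or 3, and 5 without anagen replicate 2. In KO it was 4 without anagen replicate 1. Without both anagen WT replicate 3 and early telogen WT replicate 3 it was 0 in WT, and without early telogen KO replicates 2 and 5 it was 5 in KO, both chosen after seeing the data. With anagen counts thinned to the early telogen depth, 3 and 7 of 10 passed. Passing in 1 genotype only does not show a difference between genotypes. The test of that difference is the contrast given below that sets the KO effect of 1 stage against that of the other, and 0 of 10 passed in it.

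The second comparison asked what differed between KO and WT within each stage. None of the 10 genes passed in either stage by edgeR. In anagen 0 of 14409 genes (0%) passed, with 1 of the 10 genes at an unadjusted p under 0.05 and 1 by DESeq2. Over all 14409 genes, 1456 had an edgeR unadjusted p under 0.05, and by DESeq2 89 were higher and 418 lower. Foxc1 itself, the deleted gene, did not pass by edgeR in anagen (log2 fold change -8.19, edgeR adjusted p = 0.0522). With the title day as a block, 46 genes were higher and 207 lower, and 1 of the 10 passed. In early telogen 0.956% of 12030 genes passed, with 3 of the 10 at an unadjusted p under 0.05 and 2 by DESeq2. Over all 12030 genes, 1448 had an edgeR unadjusted p under 0.05, and by DESeq2 233 were higher and 190 lower. The median log2 fold change of the 10 genes was 0.28 in anagen against 0.02 over all genes, and 0.09 in early telogen against 0.03. The KO libraries of a stage lay above all its WT libraries for 4 of 10 genes in anagen (Dusp4, Spry2, Spry4 and Etv4, against 18.5% of genes) and for 2 of 10 in early telogen (Spry2 and Spry4, against 9.75%). Without KO replicate 2 and WT replicate 3, which stood at the ends of their stage in fibroblast and epidermal differentiation RNA, 0 of 10 passed in early telogen. The same groups served the stage comparison above, so the values are not independent of it.

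Among the phosphatases, Dusp4 had the largest KO difference in anagen, 51.7 ± 24.6 CPM in KO (SD, n = 2) against 13.5 ± 4.65 in WT (n = 3). Both KO libraries lay above the highest WT library. The log2 fold change was 1.85 ± 0.39 (edgeR unadjusted p = 0.00238, adjusted p = 0.198). Dusp4 passed in 4 of 12 alternatives. The DESeq2 adjusted p was 0.00147, and with low-count genes kept the edgeR adjusted p was 0.0167. In the edgeR fit of all 12 libraries the adjusted p was 0.0208, where 0.0531% of 13193 genes were higher and passed. With the title day as a block, where only P29 and P31 bear on the value, the edgeR adjusted p was 0.0406. Without WT replicate 1, 2 or 3, Dusp4 did not pass (edgeR adjusted p = 0.191, 0.430 and 0.179). Its log2 fold change was 2.26 ± 0.37 without KO replicate 1 and 1.26 ± 0.39 without KO replicate 2. The labels gave both anagen KO libraries as female and 2 of the 3 WT libraries as male. With sex as a covariate, anagen KO was thus set against WT replicate 1 alone, the only female WT library. The Dusp4 value was then 1.70 ± 0.61. In early telogen its log2 fold change was 0.10 ± 0.34 (edgeR adjusted p = 0.943).

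Dusp6 and Dusp1 had their larger KO differences in early telogen. Dusp6 was at 383 ± 67.1 CPM in KO (n = 4) against 558 ± 118 in WT (n = 3), with 2 KO libraries above the lowest WT library. On the log2 scale the fold change was -0.73 ± 0.21 (edgeR adjusted p = 0.147; DESeq2 adjusted p = 0.0239), against 0.07 ± 0.24 in anagen (edgeR adjusted p = 0.950). Dusp5 had log2 fold changes of -0.46 ± 0.31 in anagen and -0.26 ± 0.25 in early telogen (edgeR adjusted p = 0.677 and 0.760).

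Dusp1 was at 1100, 1538 and 1880 CPM in anagen WT and 622 and 1848 CPM in anagen KO. In early telogen it was at 1327, 2958 and 1918 CPM in WT and 1100, 1092, 1529 and 1177 CPM in KO. Groups overlapped in both stages, and WT replicate 3 held the highest early telogen value. Its log2 fold change was -0.38 ± 0.48 in anagen (edgeR adjusted p = 0.842) and -0.96 ± 0.27 in early telogen (edgeR adjusted p = 0.136; DESeq2 adjusted p = 0.0157; edgeR with low-count genes kept 0.0216). Without WT replicate 3 alone the early telogen value was -0.56 ± 0.26 (edgeR adjusted p = 0.722), and without KO replicate 2 as well it was -0.60 ± 0.23 (edgeR adjusted p = 0.465). The summed level of 19 genes known to respond to tissue dissociation, such as Fos and Jun, moved with it. That sum was 18075 and 49527 CPM in anagen KO, 26012 to 45552 in anagen WT, 26862 to 36246 in early telogen KO and 32756 to 48820 in early telogen WT. Its part in the Dusp1 values was not tested. After removing group means, Pearson's r between Dusp1 and the mean log2 CPM of those 19 genes, not their sum, was 0.93 over the 12 libraries.

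**Figure D3:**
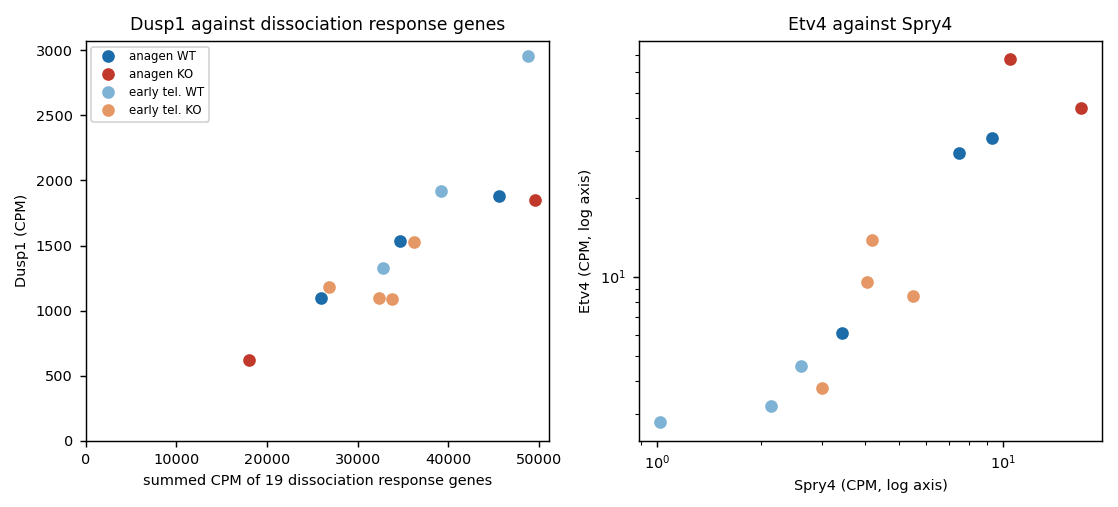
Left, Dusp1 CPM against the summed CPM of 19 dissociation response genes, and right, Etv4 against Spry4 CPM on log axes, 1 point per library. Anagen KO replicate 1 is lowest on both left axes (622 and 18075 CPM), and the anagen KO libraries stand at the top right of the other plot.

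Among the upstream inhibitors, Spry4 was at 13.7 ± 4.51 CPM in anagen KO (n = 2) against 6.71 ± 2.99 in WT (n = 3), and at 4.18 ± 1.02 in early telogen KO (n = 4) against 1.92 ± 0.82 in WT (n = 3). KO libraries lay above WT libraries in both stages, by little. The log2 fold changes were 0.93 ± 0.43 and 0.997 ± 0.49 (edgeR adjusted p = 0.536 and 0.450). With sex as a covariate (KO against WT replicate 1 alone) the anagen value was 0.48 ± 0.56. Without KO replicate 2 it was 0.55 ± 0.54 and without WT replicate 2 it was 0.62 ± 0.33.

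Spry2 was at 115 ± 0.90 CPM in anagen KO against 70.0 ± 25.8 in WT, and at 62.1 ± 19.3 in early telogen KO against 47.4 ± 3.48 in WT. Its KO libraries also lay above all WT libraries in both stages, in early telogen by under 1 CPM at the closest pair. The log2 fold changes were 0.63 ± 0.31 and 0.23 ± 0.23 (edgeR adjusted p = 0.566 and 0.757). The anagen value of Spry2 was 0.22 ± 0.39 with sex as a covariate (KO against WT replicate 1 alone) and 0.37 ± 0.20 without WT replicate 2. The early telogen value was -0.01 ± 0.19 without KO replicate 1 and 0.37 ± 0.21 without KO replicate 2. Spred1 had log2 fold changes of 0.22 ± 0.25 and -0.12 ± 0.16 (edgeR adjusted p = 0.821 and 0.827), and Spry1 of -0.60 ± 0.28 and 0.08 ± 0.34 (edgeR adjusted p = 0.536 and 0.953).

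Of the ETS factors, Etv4 was at 55.6 ± 16.8 CPM in anagen KO (n = 2) against 23.1 ± 14.8 in WT (n = 3). It was at 8.87 ± 4.11 CPM in early telogen KO (n = 4) against 3.52 ± 0.93 in WT (n = 3). KO lay above WT in anagen, and in early telogen KO replicate 5 alone fell within the WT libraries. The log2 fold changes were 1.19 ± 0.64 and 1.18 ± 0.41 (edgeR adjusted p = 0.597 and 0.235), with 95% intervals of -0.34 to 2.71 and 0.30 to 2.06. The anagen value was 0.74 ± 0.27 without WT replicate 2 (edgeR adjusted p = 0.667). With sex as a covariate (KO against WT replicate 1 alone) it was 0.65 ± 0.85. Etv5 had log2 fold changes of 0.34 ± 0.38 and 0.15 ± 0.32 (edgeR adjusted p = 0.818 and 0.904).

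Of 15 mitosis genes, 8 were higher in KO and passed by edgeR in early telogen (0.956% of all genes passed) and 0 in anagen. In anagen 0 of all 14409 genes passed by edgeR. There 1 of the 15 was at an edgeR unadjusted p under 0.05 and 0 passed by DESeq2. All 15 had a positive log2 fold change in both stages, with medians of 1.16 in anagen and 2.34 in early telogen. Over all genes, 51.9% and 53.7% were positive, with medians of 0.02 and 0.03. In the contrast between stages given below, 0 of the 15 passed by edgeR or DESeq2. Between stages, 7 of the 15 were lower in early telogen and passed by edgeR in WT (15.9% of all genes) and 9 in KO (12%). Their median log2 fold changes between stages were -2.89 in WT and -1.63 in KO. The summed level of the 15 was 181 to 230 CPM in early telogen KO against 23.4 to 46.0 in WT, and 689 and 183 CPM in anagen KO against 80.7 to 357 in WT, where the groups overlapped. Sums over 6 hair germ and matrix genes were 468 and 570 CPM in anagen KO against 235 to 409 in WT, and 133 to 237 CPM in early telogen. After removing group means, Pearson's r of the 10 genes with the mean log2 CPM of the mitosis genes ran from -0.78 (Dusp1) to 0.875 (Spred1). With that of the 8 fibroblast genes it ran from -0.56 (Dusp5) to 0.81 (Etv5). The part of these lists in the values of the 10 genes was not tested.

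**Figure D4:**
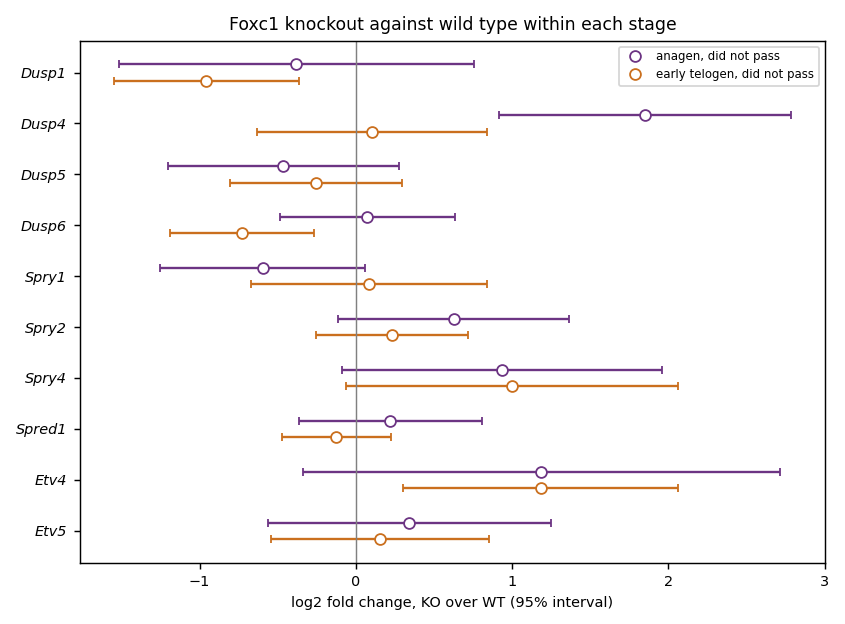
Log2 fold change of KO over WT with 95% intervals from the edgeR fit, in anagen (2 against 3 libraries) and early telogen (4 against 3). Every point is open because none passed by adjusted p, though the unadjusted intervals of Dusp4 in anagen (0.92 to 2.79) and of Dusp1, Dusp6 and Etv4 in early telogen lie clear of 0.

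The third comparison tested whether the KO effect differed between stages over all 12 libraries. None of the 10 genes passed (0.144% of 13193 genes did), with 2 at an unadjusted p under 0.05 by edgeR and 0 passing by DESeq2. Over all 13193 genes, 841 had an edgeR unadjusted p under 0.05, and by DESeq2 136 were higher and 18 lower. The estimate for Dusp4 was -1.79 ± 0.50, its KO difference in early telogen less that in anagen (edgeR adjusted p = 0.306). It passed only when low-count genes were kept (edgeR adjusted p = 0.00445) among the alternatives run. Dusp6 had -0.83 ± 0.31 (edgeR adjusted p = 0.562), and the other 8 had adjusted p of 0.923 to 1.

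The genes varied together in part. Correlations are given on log2 CPM over the 12 libraries after removing group means, so that stage and genotype do not enter. The libraries share depth and table within a stage, so each r is a description. Etv4 and Etv5 had r = 0.83, Spry2 and Spry4 0.73, Spry4 and Etv5 0.70 and Spry4 and Etv4 0.69. Anagen WT replicate 2 was the lowest library of its group for each of these genes, so it bears on every one of these r. Age within a group can still enter. Dusp4 and Dusp5 had r = 0.73, while Dusp1 and Spred1 had r = -0.69.

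**Figure D5:**
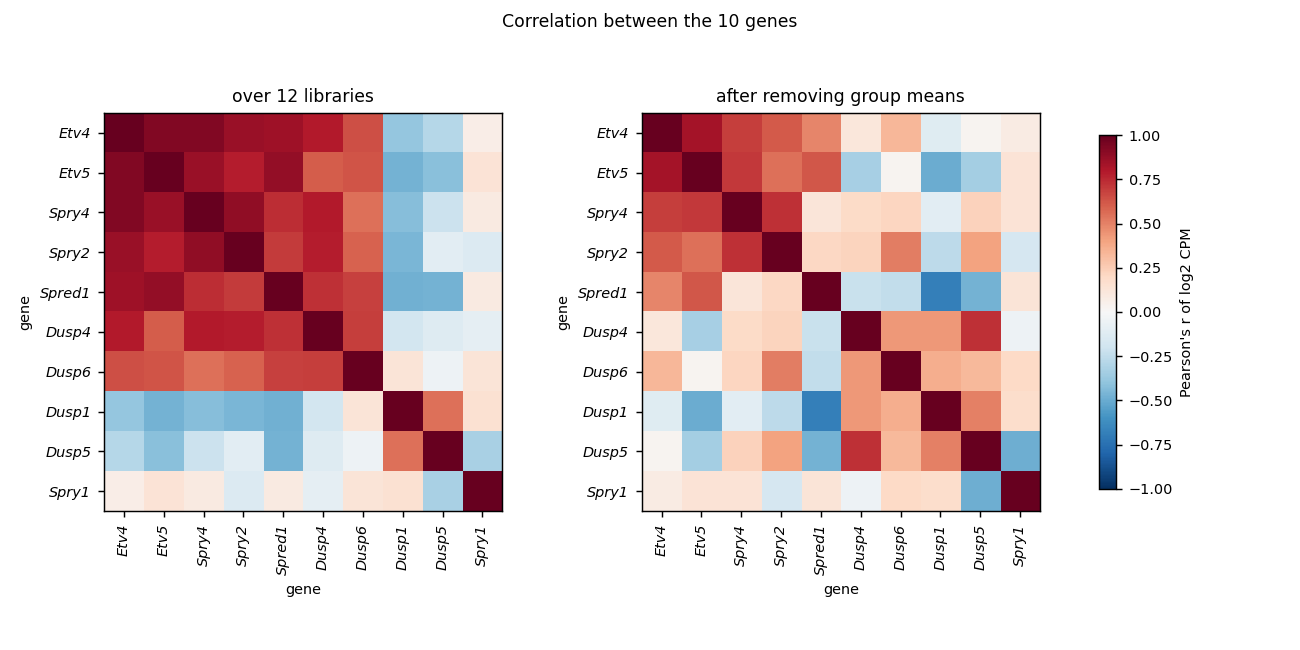
Pearson's r of log2 CPM between the 10 genes over 12 libraries (left) and after removing group means (right), in an order chosen after seeing the values. Etv4, Etv5, Spry4 and Spry2 form a block of positive r in both panels, with Etv4 and Etv5 at 0.83 on the right.

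Genes whose pattern was most like that of a member were taken among 7645 genes by Pearson's r over the 12 libraries, where stage dominates. Spred1 was closest to Cnih4 (r = 0.99) and Irf5 (0.98). Spry4 was closest to Adcy7, Scrg1 (both 0.97) and Deptor (0.96), and Etv4 to Faf2 (0.97) and Serinc5 (0.96). Etv5 was closest to Mboat7 (0.95), Dusp6 to Wnt9a (0.95), Spry2 to the hair shaft regulator Hoxc13 (0.94), Dusp4 to Chpf (0.93) and Spry1 to Tsen54 (0.93). Dusp1 and Dusp5 had weaker best matches, Arid5a (0.88) and Foxo3 (0.83).

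Other genes of the pathway gave a setting for the 10. For KO against WT, the counts over all genes given with the second comparison stand beside those of the lists below. At an edgeR unadjusted p under 0.05 these were 1456 of 14409 in anagen and 1448 of 12030 in early telogen. Of 26 genes of the receptor-to-ERK cascade, 0 passed for KO against WT in either stage by edgeR, with 2 and 1 at an unadjusted p under 0.05 and 2 and 0 by DESeq2 in anagen and early telogen. The smallest p in anagen were those of the receptors Fgfr3 (log2 fold change 0.88, edgeR adjusted p = 0.245) and Fgfr2 (-0.74, 0.302), and in early telogen those of the adaptor Shc1 (-0.46) and the receptor Erbb3 (0.56). Between stages, 6 of 26 were higher and 2 lower in WT early telogen, and 1 was higher and 3 lower in KO. Over all genes, 29.5% passed in WT and 22.2% in KO in either direction. A count near that share is not a result about a list. In WT the kinase Mapk3 (ERK1) fell by 0.80 and Hras fell by 0.63 on the log2 scale, while the adaptor Gab1 rose by 0.78 and the phosphatase Ptpn11 by 0.63. In KO, Fgfr3 fell by 1.17 and Hras fell by 0.81, and Fgfr2 rose by 1.02. The number that passed was 3 and 2 in WT without early telogen WT replicate 3 or 4, and 2 in KO without either anagen KO library or early telogen KO replicate 1 or 3.

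Of 17 further feedback genes, 16 were tested and 0 passed for KO against WT by edgeR, with 2 and 4 at an unadjusted p under 0.05 and 0 and 2 by DESeq2. Dusp7 (-1.003) and the receptor inhibitor Lrig1 (0.92) had the smallest p in anagen, and Errfi1 (-1.24) and Dusp7 (-0.94) in early telogen. Between stages, 3 were higher and 3 lower in WT early telogen, and 0 higher and 5 lower in KO. Of all genes, 29.5% and 22.2% passed. Dusp10, a phosphatase of p38 and JNK, fell by 1.99 on the log2 scale in WT and fell by 2.80 in KO. Lrig1 fell by 1.60 in WT and fell by 2.20 in KO. In WT, Nf1, the neurofibromin that Spred1 recruits, rose by 0.81 and Dusp7 by 0.88. In KO, the Ras inactivator Rasa1 fell by 0.92 and Dusp16 fell by 0.94. In WT, 3 stage calls were made without early telogen WT replicate 3, and in KO 3 without anagen KO replicate 2 or early telogen KO replicate 1. Without early telogen WT replicate 1, 1 gene passed for KO against WT.

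Of 13 other genes known as ERK targets, 12 were tested in anagen and 10 in early telogen, and 0 passed for KO against WT by edgeR, with 4 and 6 at an unadjusted p under 0.05 and 2 and 3 lower by DESeq2. Emp1 (-1.42) and the ligand Ereg (-2.45) had the smallest p in anagen, and Ier3 (-0.87) and Myc (-0.82) in early telogen. Between stages 4 of 10 were higher and 1 lower in WT, and 2 higher and 2 lower in KO. Of all genes, 29.5% and 22.2% passed. The EGF-family ligand Areg fell by 3.66 on the log2 scale in WT and fell by 2.13 in KO, while the membrane protein Emp1 rose by 1.40 and 2.31. In WT, Egr3 rose by 0.62 and Myc by 0.81, and in KO, Ereg rose by 3.81 and Ier3 fell by 1.20. Without early telogen WT replicate 3 the WT stage count was 2, and without early telogen KO replicate 2, 1 gene passed for KO against WT.

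Of the 19 dissociation genes, 0 passed for KO against WT by edgeR, with 3 and 7 at an unadjusted p under 0.05 and 2 and 4 lower by DESeq2. The heat-shock gene Hspa1b (-1.35) and Cyr61 (-0.88) had the smallest p in anagen, and Ier3 and Myc, which this list shares with the ERK targets, in early telogen. Between stages 4 were higher and 0 lower in WT, and 2 higher and 4 lower in KO. Of all genes, 29.5% and 22.2% passed. Cyr61 rose by 1.82 in WT and by 1.73 in KO on the log2 scale. In WT, Klf6 rose by 0.89, Klf4 by 0.96 and Myc by 0.81, and in KO, Ier3 fell by 1.20, Btg2 fell by 1.97 and Ier2 fell by 1.32. Without early telogen KO replicate 1 the KO stage count was 3.

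In the contrast of the KO effects of both stages, 0 genes of these 4 lists passed by edgeR. At an edgeR unadjusted p under 0.05 were 1 each of the cascade, further feedback and ERK target lists and 2 dissociation genes. Over all 13193 genes, 841 were. By DESeq2, 1 dissociation gene passed. The smallest p were those of Fgfr3 (-1.12) and Gab1 (-0.65), Errfi1 (-1.24) and Dusp10 (-0.82), Ier3 (-0.81) and Emp1 (0.90), and Hspa1b (1.77).

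The genes lie on 10 chromosomes (GENCODE vM21, GRCm38). Dusp1 spans chr17:26505590-26562128, Dusp4 chr8:34807297-34819894, Dusp5 chr19:53529109-53542431 and Dusp6 chr10:99263231-99267489. Spry1 spans chr3:37639947-37644598, Spry2 chr14:105891947-105896819 and Spred1 chr2:117121374-117182279. Etv4 spans chr11:101769742-101785371 and Etv5 chr16:22381309-22439719. Exon lengths ran from 2087 bases (Spry2) to 6784 (Spred1).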

How the data were processed

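RNA was measured in 12 libraries of sorted cells. The authors deposited 1 table of unnormalized gene counts for each stage, from reads aligned with TopHat2 to mm10 and counted with HTSeq, per the submitters' processing notes. The kit marks strand, per the labels, but versions, the strand option and any batch were not given in the sources used here, so reads of overlapping or antisense genes may be mixed. From the anagen table, 38803 genes were used and 5 tally lines left out. From that of early telogen, 37958 genes were used, 27 of them with names turned into dates, and 3 broken lines were left out. Names in the anagen table alone (872) held 3.14% to 3.41% of its counts and did not enter stage comparisons. Reads placed at more than 1 position were 31.1% and 32.8% in anagen KO and 20.1% to 25.8% in anagen WT. No libraries of a group were copies.

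Tests used edgeR 4.0.16 in R 4.3.3: TMM scaling, filterByExpr with a minimum count of 10 and a total of 15, and the quasi-likelihood F-test with robust fitting. P-values were adjusted by Benjamini-Hochberg over all genes tested. Every member passed the filter in each fit. Each comparison was fitted on its own groups, and the difference of the KO effect on all 12 libraries. SEs come from the F statistic. Alternatives were DESeq2 1.42.0, other scaling, no filter, a sex covariate, blocks, thinning and leaving out libraries. Simulated data held 100 genes changed by 2 and 100 changed by 4 on the log2 scale. Of those changed by 2, 68% were recovered for anagen KO against WT (14409 genes) and 80% for early telogen KO against WT (12030 genes). For early telogen against anagen, 65% were recovered in WT and 73% in KO. Unchanged genes made up 2.99%, 11.6%, 7.14% and 4.14% of the calls in these fits, in that order. Recovery depends on how many genes change. These shares need not hold for the real anagen KO against WT fit, where 0 genes passed.

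All members are described. Of each other list, counts are given and at most 4 genes that passed by smallest p, or 2 where none passed; for most alike genes, up to 3 by r among those with a mean of at least 10 CPM (log2 CPM with a prior count of 2). The members and lists were chosen with earlier results of these data known. Promoters are from RefSeq. Some genes that these rules would name are not reported here.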

Additional observations from a re-analysis of the deposited data

Results flagged for a closer look

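In the 10 groups of 4 libraries, those of early telogen KO for each gene, 2 values stood far from the rest by Dixon's test, where the gap to the nearest library, divided by the whole range, passed 0.829. Dusp5 was at 105 CPM in early telogen KO replicate 2, below the other 3 libraries, with a ratio of 0.866. Spry2 was at 91.0 CPM in early telogen KO replicate 1, above the other 3, with a ratio of 0.98. At this 95% level chance flags about 5% of groups. Replicate 2 was also the library with most RNA of fibroblast and epidermal differentiation genes.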

How the results depend on the processing

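Of 730 values of the 10 genes under alternatives, 636 kept their direction and side of the threshold, 30 lost a call, 13 gained one and 51 turned sign. For anagen KO against WT, DESeq2, no filter on low counts, the fit of all 12 libraries and the title-day block each gave 1 gene that passed in place of 0. For early telogen KO against WT, DESeq2 gave 2 and no filter 1. For the difference of the KO effect, no filter gave 1. Leaving out 1 library gave 0 to 5 genes for WT stages and 4 to 6 for KO stages, and leaving out anagen WT 3 and early telogen WT 3 gave 0 in WT.

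The title day (P29, P31) and the replicate numbers 1 and 3 are shared by KO and WT. Deviations from group means correlated by r of 0.414 and 0.358 for the days and 0.107 and 0.0506 for the numbers, over 2 shared labels in each stage. The 2 anagen KO libraries deviate from their mean by equal amounts in opposite directions. The r of the days are thus not independent of each other. The title day is an age, which the age label of anagen WT replicate 3 goes against, and no label names a shared litter or batch, so whether the pairs share more than a day or a number was not tested. Libraries with an unshared label, such as anagen WT replicate 2, do not bear on the blocked estimates. The replicate block moved the count of genes that passed to 46 higher and 207 lower in anagen (1 member) and to 4 higher and 7 lower in early telogen (0 members). Under the block, Dusp6 in anagen was at -0.038, and Dusp4 and Spry1 in early telogen at -0.14 and -0.52.

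Other values turned sign, on the log2 scale, and none of these had passed. With sex as a covariate, Dusp1 (0.0885), Spred1 (-0.0746) and Etv5 (-0.16) turned in anagen, where KO was then set against WT replicate 1 alone. The sex covariate also turned Spry1 in early telogen (-0.0004) and in KO stages (-0.0918). Without early telogen KO 2 and WT 3, Dusp5 (0.16), Spry1 (-0.49) and Etv5 (-0.11) turned in early telogen. Library totals turned Spred1 in early telogen (0.0461), and DESeq2 or its size factors turned Dusp1 in KO stages (0.0115 in both). Without early telogen KO 2 and 5, Spry1 in KO stages was -0.30. For the difference of the KO effect, Dusp5 (-0.0814) and Etv4 (-0.0318) turned without anagen WT 3 and early telogen KO 5, and Etv4 by DESeq2 (-0.0273).

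Leaving out 1 library gave these ranges. In anagen KO against WT they were -1.37 to 0.19 for Dusp1, -0.0819 to 0.20 for Dusp6, -0.0752 to 0.45 for Spred1 and -0.11 to 0.69 for Etv5. In early telogen KO against WT they were -0.0706 to 0.30 for Dusp4, -0.37 to 0.29 for Spry1, -0.0146 to 0.37 for Spry2 and -0.0849 to 0.39 for Etv5. Between stages they were -0.0795 to 0.36 for Dusp5 in WT, and in KO -0.62 to 0.92 for Dusp1, -0.002 to 0.76 for Dusp5 and -0.0762 to 0.67 for Spry1. For the difference they were -1.17 to 0.37 for Dusp1, -0.15 to 0.61 for Dusp5, -0.25 to 0.41 for Spry4, -0.36 to 0.46 for Etv4 and -0.55 to 0.25 for Etv5. The cause was not tested.

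Library totals moved the median of all genes to 0.21 in early telogen KO against WT and to -0.23 in WT stages, and no filter moved it to -0.43 there. Library totals gave 95 genes higher and 46 lower in early telogen KO, against 60 and 55, and 1293 higher and 2450 lower in WT stages, against 1724 and 2024. DESeq2 gave 89 higher and 418 lower in anagen KO, against 0 by edgeR with 1456 genes at an unadjusted p under 0.05, and 233 and 190 in early telogen KO. Early telogen depth limits Spry4 and Etv4, with 8 to 65 and 10 to 155 reads a library.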
